A study of Homo sapiens with 6 samples.

Results

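Replication-dependent histone genes, the multicopy genes that supply the histone proteins packed onto newly copied DNA, were compared between MDA-MB-453 cells transfected with *DUSP6* siRNA and the same cells transfected with scrambled siRNA. The members are all rows of the expression table whose symbol begins with H1-1 to H1-6, H2AC, H2BC, H3C or H4C and ends in a number, which gave 66 of 22807 genes. RefSeq on GRCh38.p14 holds 70 symbols of this form, and the other 4 (*H2AC25*, *H2BC1*, *H2BC26* and *H4C16*) were not rows of the table under those names. The 66 members comprised 7 linker histone genes (H1), 16 H2A, 16 H2B, 13 H3 and 14 H4 genes. Of these, 54 lie in the histone cluster of chromosome 6 (6p22), 11 in that of chromosome 1 (1q21) and 1, *H1-10*, on chromosome 3. *H1-10* matches the symbol rule but encodes a variant linker histone that is made outside S phase too, so it was carried along as a member and described separately.

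MDA-MB-453 is an established HER2+ breast cancer cell line, labelled wild type in all libraries and grown in serum-containing medium. RNA was sequenced in 6 libraries, 3 per group, and the study describes 3 different siRNAs for each group. Which siRNA entered which library and the hours after transfection are not given in the sources used here, and each library was taken as 1 replicate of its group, so that p-values measure the spread between these libraries. The line's own markers *ERBB2*, *FOXA1*, *KRT8*, *KRT18* and *SPDEF* had group means between 153 and 984, *ESR1* was near 0, and *PTPRC* of leukocytes and *PECAM1* of endothelium had group means of at most 0.224. *COL1A1*, a fibroblast collagen, had a mean of 92.2 with scrambled siRNA and 173 with *DUSP6* siRNA, and its part in the results was not tested.

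Replication-dependent histone genes have no introns in their classical form, and their mRNAs end in a conserved stem-loop instead of a poly(A) tail. The stem-loop is bound by SLBP, the pre-mRNA is cut by a complex guided by the U7 small nuclear RNA, and the mRNA is made in S phase and destroyed when DNA synthesis stops. Many of these genes can also yield longer, polyadenylated transcripts when cleavage after the stem-loop fails or is bypassed, and such transcripts are known from differentiated or non-dividing cells. The labels name the library kit in more than one way, as a stranded mRNA preparation, which selects RNA by its poly(A) tail, and as a kit for total mRNA, so whether tails were selected is not settled here. If they were, the values below count chiefly those histone transcripts that carry a tail, and they cannot be read as the amount of all histone mRNA.

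The stem-loop is printed here because it is the feature that sets these mRNAs apart and because its form differs between the classes. A 16-base motif, which reads GG, any 2 bases, CTT, any base, T, any base, AG, any 2 bases and CC, was searched for on the transcript strand in the 200 bases after each stop codon in GENCODE v44 on hg38. It was found in 65 of the 66 members, all but *H1-10*, and in 0.372% of 19899 protein-coding genes. In the following 16-base forms the capitals mark the arms that pair with each other and the lower-case letters mark the loop.

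H1, H2A, H2B and H3 form, 37 members including H2AC18, H2AC19, H2BC17 and H1-2: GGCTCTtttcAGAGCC

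H4 form, 9 members including H4C8: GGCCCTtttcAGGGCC

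Form of 9 members including H2BC12, H2BC4, H2BC5 and H3C8: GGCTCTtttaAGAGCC

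Form of H4C9, H4C12, H4C14 and H4C15: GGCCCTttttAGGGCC

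Form of H3C6 alone: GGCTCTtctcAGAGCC

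The 4 common forms differ either in the middle of the stem, where the H4 genes have another base pair, or in the last base of the loop. The remaining 5 members with a motif (*H2AC11*, *H2AC15*, *H2AC20*, *H2BC10* and *H4C13*) each had a form of their own.

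The promoters are shown for 2 members because the histone classes share promoter letters to unequal degrees. In the 250 bases before the start, RefSeq promoters were matched for 61 of 66 members and 27305 promoters in all, and motifs were counted on both strands. The letters CCAAT, bound by NF-Y among others, occurred in 83.6% of the members and 33% of all promoters, and TATAAA in 67.2% against 11.1%. ATTTGCAT, the octamer recognised by the factor POU2F1 (OCT1), occurred in 41% of the members against 1.66% of all promoters. It was found in 13 of 16 H2B promoters, 11 of 15 H2A promoters, 1 of 11 H3 promoters, and in none of the 7 H1 and 12 H4 promoters matched. The 1 H3 promoter, matched for *H3C4*, is the same interval as the one matched for *H2AC7* and is thus counted in both classes. TTTGGCGC, one spelling of an E2F site, was in 0 of 61 member promoters, and The core of an interferon response element, GAAA repeated after any 2 bases, was in 3 of them, or 4.92% against 3.07%. These matches describe letters and do not show binding. The stretches below end at the base before the start, and capitals mark the CCAAT letters, the TATA letters and the octamer on either strand.

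H2BC12, GRCh38.p14 chr6:27146859-27147018, minus strand: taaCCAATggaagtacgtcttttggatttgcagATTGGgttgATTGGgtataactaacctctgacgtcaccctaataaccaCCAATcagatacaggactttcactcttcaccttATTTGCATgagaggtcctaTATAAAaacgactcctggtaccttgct

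H2AC6, GRCh38.p14 chr6:26124012-26124171, plus strand: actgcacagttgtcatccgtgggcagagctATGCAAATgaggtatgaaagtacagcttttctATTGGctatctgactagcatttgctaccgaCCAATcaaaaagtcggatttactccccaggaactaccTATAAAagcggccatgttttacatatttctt

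Each library had between 45546981 and 85729785 reads on genes, and 1 read was worth a value of 0.0121 to 0.0202. Values are reads divided by a library size that the authors scaled for composition, and fold changes and p-values are from limma on log2(value + 1) for the 12862 genes with a mean of at least 1, with Benjamini-Hochberg adjustment over those genes. Adding 1 makes the fold changes of low genes smaller. *DUSP6*, the targeted phosphatase gene, had values of 209, 110 and 114 with scrambled siRNA and 39.4, 24.5 and 35.2 with *DUSP6* siRNA. The log2 fold change was -2.05, with a standard error (SE) of 0.25 and a limma adjusted p of 3.09e-04, and no library went against its label.

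Histone genes had higher values after *DUSP6* siRNA in most members that could be tested. The values of all 66 members together summed to 384, 420 and 341 with scrambled siRNA and 647, 663 and 612 with *DUSP6* siRNA, with means of 382 ± 39.5 and 641 ± 26.2 (SD, n = 3), a ratio of 1.68. Without *H1-10* the ratio was 1.77, and without *H1-10* and the most abundant member, *H2BC12*, it was 1.56. The groups did not overlap in any of these sums.

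Of the 35 members that passed the filter, 20 (57.1%) were called higher with *DUSP6* siRNA and 0 lower, beside 19.7% higher and 24.7% lower among all genes tested. The fold change was above 0 in 31 of the 35, and all 3 *DUSP6* siRNA libraries lay above all 3 scrambled siRNA libraries in 21 (60%), beside 26.7% of all genes tested. The median log2 fold change of the 35 was 0.51, beside -0.01 over all genes tested. For 5 of the 35 (*H2BC15*, *H3C14*, *H3C15*, *H4C12* and *H4C15*) the scrambled siRNA mean was under 1, so that they passed the filter through the *DUSP6* siRNA libraries. Among the 30 whose scrambled siRNA mean was at least 1, 16 were called higher, and all 3 *DUSP6* siRNA libraries lay above in 16. All 5 others had the *DUSP6* siRNA libraries above and 4 of them were called, but the way they passed the filter favors that direction. With edgeR's quasi-likelihood test on the reads of every gene in the table, without a filter, 23 of the 66 members passed as higher and 3 as lower (adjusted p under 0.05), beside 14.2% and 15.7% of all genes. Leaving out *DUSP6* siRNA replicate 2 lowered the count of members called higher by limma from 20 to 13.

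**Figure D1:**
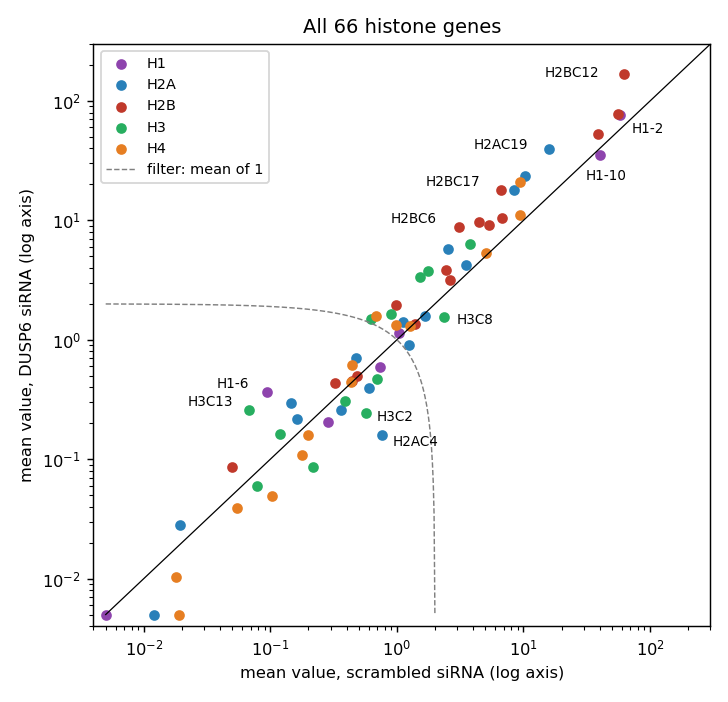
Each point is 1 of the 66 histone genes, with the mean value over 3 scrambled siRNA libraries on the horizontal axis and over 3 *DUSP6* siRNA libraries on the vertical axis (both log axes, reads over the scaled library size), colored by class. The solid line marks equal means, the dashed curve the filter at a mean of 1, and 3 genes with a mean under 0.005 in a group are drawn at the edge. Most genes above the filter lie above the line, and those below it lie on both sides.

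The core histones of the H2A and H2B classes, which pair as dimers in the nucleosome, had the largest ratios of summed values. The H2A genes summed to 38.5, 64.5 and 38.7 with scrambled siRNA and 101, 104 and 86.3 with *DUSP6* siRNA (2.06-fold). The H2B genes summed to 215, 200 and 163 against 363, 383 and 355 (1.90-fold). Without *H2BC12* the H2B sums were 130 ± 37.3 against 198 ± 3.31, a ratio of 1.52, which lies between those of H3 and H4. The rank of H2B thus rests on *H2BC12*. H3 and H4 form the tetramer at the center of the nucleosome. Their sums were 13.1 ± 2.47 against 19.8 ± 1.73 for H3 (1.51-fold) and 28.1 ± 3.18 against 43.1 ± 2.98 for H4 (1.53-fold). The linker histones, which bind where DNA enters and leaves the nucleosome, had 93.8, 109 and 99.4 against 120, 108 and 113. In that class alone the groups overlapped. Without *H1-10* the linker histones had 60.5 ± 11.3 against 78.5 ± 1.76, and these groups did not overlap. No test was run on the sums or between classes.

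**Figure D2:**
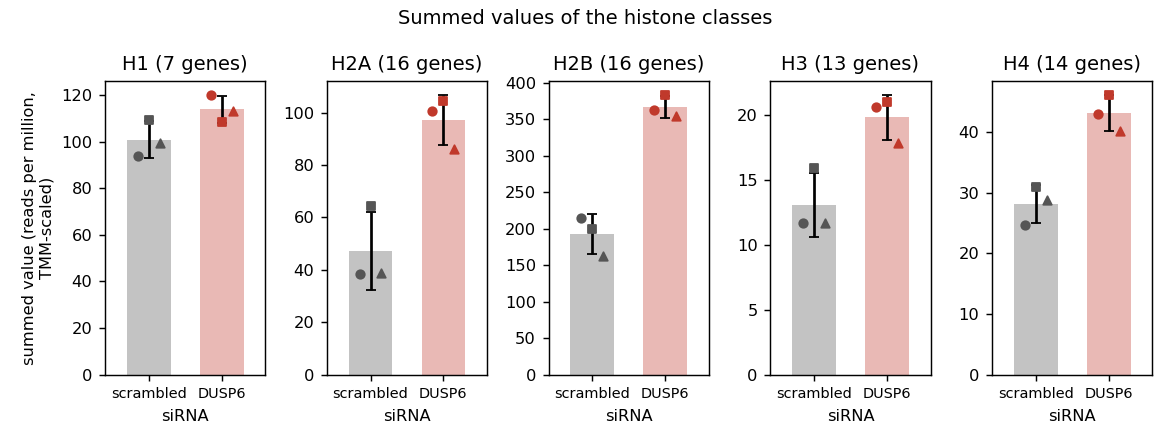
Bars give the mean and error bars the SD of the summed values of each histone class (reads over the scaled library size, axes from 0) in 3 scrambled siRNA and 3 *DUSP6* siRNA libraries, with 1 point per library (circle, square and triangle for replicates 1, 2 and 3). The *DUSP6* siRNA points lie above the scrambled siRNA points for H2A, H2B, H3 and H4 and overlap them for H1.

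Among the H2B genes, 8 of the 12 that passed the filter were called higher, out of 16 members. *H2BC15*, among the 8, passed the filter only through the *DUSP6* siRNA libraries. *H2BC12* had the highest level of any member, with 97.5, 27.9 and 62.8 with scrambled siRNA and 161, 188 and 159 with *DUSP6* siRNA. The fold change, 1.59 on the log2 scale (SE 0.36, limma adjusted p = 0.00681), was the largest of the members tested and also the least precise, since scrambled siRNA replicate 2 was far below the other scrambled libraries. Without that library the log2 fold change was 1.10 (limma adjusted p = 0.00298). *H2BC17* was more even, at 7.48, 5.82 and 6.74 against 17.8, 19.6 and 16.5 (log2 fold change 1.31, SE 0.12, limma adjusted p = 7.76e-05). *H2BC6* had 3.75, 1.95 and 3.57 against 8.92, 9.31 and 8.25 (log2 fold change 1.29, limma adjusted p = 5.79e-04). In *H2BC17* and *H2BC6*, as in *H2BC12*, scrambled siRNA replicate 2 was the lowest library, and the groups stayed well apart. Of the 50-base stretches in coding sequence, 18.8% of those in *H2BC6* or *H2BC12* occur in the other. For *H2BC17*, 12.5% occur in *H2BC12*. Reads from these stretches can be placed at either gene, so the separate values are uncertain, and the part of shared reads in them was not tested.

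In the other H2B genes called higher, scrambled siRNA replicate 2 was instead close to or above the rest of its group. *H2BC4* had 4.02, 6.76 and 2.65 against 8.88, 11.9 and 8.39 (log2 fold change 1.02, limma adjusted p = 0.00998). *H2BC18* had 4.72, 7.57 and 3.82 against 9.50, 9.56 and 8.42 (0.72, limma adjusted p = 0.0159). *H2BC8* had 5.25, 8.85 and 6.03 against 10.5, 10.9 and 10.3 (0.61, limma adjusted p = 0.0151). These genes did not overlap between groups, with the gap set by scrambled siRNA replicate 2. *H2BC11* had 2.84, 2.76 and 1.68 against 3.46, 4.55 and 3.51 (0.51, limma adjusted p = 0.0329), and *H2BC15* had 1.15, 0.958 and 0.832 against 2.24, 1.72 and 1.85 (0.57, limma adjusted p = 0.00490). Exons of *HFE* on the opposite strand cover 14.9% of those of *H2BC4* and exons of *FCGR1A* cover 9.84% of those of *H2BC18*, and since the use of strand in counting is not stated, these values are uncertain to that extent. Of its coding stretches *H2BC18* shares 47.1% with *H2BC21*, and *H2BC15* shares 28.0% with other members, which adds to the uncertainty.

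*H2BC21* and *H2BC5*, both among the 5 members with the highest mean, did not pass the test in limma. *H2BC21* had 47.9, 77.7 and 41.7 against 81.5, 66.1 and 83.9 (log2 fold change 0.51, SE 0.21, limma adjusted p = 0.0749), and *H2BC5* had 36.0, 53.3 and 27.9 against 52.3, 55.6 and 49.5 (0.46, SE 0.20, limma adjusted p = 0.0841). In both genes scrambled siRNA replicate 2 reached into the *DUSP6* siRNA range while the other scrambled libraries lay below it. edgeR without a filter called *H2BC21* higher at an adjusted p of 0.0450. *H2BC9* and *H2BC7* had log2 fold changes of 0.19 and 0.02 and overlapped between groups.

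Among the H2A genes, 4 of the 8 that passed the filter were called higher, out of 16 members. *H2AC19* had 11.5, 21.8 and 14.4 with scrambled siRNA and 41.6, 41.7 and 36.1 with *DUSP6* siRNA (log2 fold change 1.31, SE 0.20, limma adjusted p = 8.80e-04). *H2AC18* had 8.08, 14.3 and 8.62 against 25.7, 24.7 and 20.4 (1.15, SE 0.19, limma adjusted p = 0.00165). These neighbors on chromosome 1 are copies of each other: 99.8% or more of the 50-base stretches in the exons of either occur in the other, so reads can be placed at either gene and their separate values are uncertain. Their sum does not depend on that placement, and it was 19.6, 36.1 and 23.1 against 67.2, 66.4 and 56.4 (2.41-fold), without overlap.

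*H2AC6* had 7.63, 11.02 and 6.46 against 17.9, 20.04 and 15.8 (log2 fold change 1.04, limma adjusted p = 0.00174), and *H2AC8* had 2.13, 3.30 and 2.23 against 4.91, 6.93 and 5.27 (0.92, limma adjusted p = 0.00214). Both have little sequence in common with other members, and their groups did not overlap. The 4 other tested H2A genes lay between -0.24 (*H2AC20*) and 0.25 (*H2AC13*) and overlapped between groups. *H2AC13* shares 63.5% of its exon stretches with *H2AC14*, and 71.0% of the exon bases of *H2AC17* lie within exons of *H3C12* on the same strand, which makes their values uncertain.

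H2A and H2B genes often lie head to head, and 10 such pairs were found with 194 to 248 bases between their starts. Both genes were tested in 5 pairs. Both were called higher in *H2AC6* and *H2BC4* (log2 fold changes 1.04 and 1.02) and in *H2AC8* and *H2BC8* (0.92 and 0.61). In *H2AC17* and *H2BC17* (0.20 and 1.31) and in *H2AC11* and *H2BC11* (-0.01 and 0.51) only the H2B gene was called, and in *H2AC20* and *H2BC21* (-0.24 and 0.51) neither was. The difference within a pair was not tested.

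Of 6 H3 genes that passed the filter, out of 13 members, 5 were called higher. *H3C14* and *H3C15*, among the 5, passed the filter only through the *DUSP6* siRNA libraries. *H3C4* had 1.46, 2.24 and 1.58 against 4.14, 3.72 and 3.51 (log2 fold change 0.80, SE 0.13, limma adjusted p = 0.00155). *H3C6* had 1.13, 2.11 and 1.33 against 2.65, 4.23 and 3.26 (0.80, limma adjusted p = 0.00654). *H3C10* had 2.69, 5.06 and 3.66 against 6.73, 6.74 and 5.62 (0.64, limma adjusted p = 0.0167). All had scrambled siRNA replicate 2 as the highest of its group, still below every *DUSP6* siRNA library. The RefSeq span of *H3C4* also holds *H2AC7* on the same strand, which was near 0 in all libraries. How reads within the shared span were assigned was not examined, so the values of both genes are uncertain.

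*H3C14* and *H3C15* are another pair of copies on chromosome 1, with 99.2% or more of their exon stretches shared. *H3C14* had 0.357, 0.862 and 0.663 against 1.37, 1.69 and 1.44 (0.63, limma adjusted p = 0.00601), and *H3C15* had 0.744, 0.958 and 0.988 against 2.08, 1.70 and 1.17 (0.47, limma adjusted p = 0.0266). Their sum was 1.10, 1.82 and 1.65 against 3.46, 3.39 and 2.61 (2.07-fold), again without overlap. *H3C8* was the tested member with the lowest fold change, at 2.89, 2.51 and 1.71 against 1.80, 1.47 and 1.42 (-0.38, SE 0.15, limma adjusted p = 0.0649). Its groups overlapped by 1 library. edgeR without a filter gave it an adjusted p of 0.0497.

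Of 6 H4 genes that passed the filter, out of 14 members, 2 were called higher. *H4C12*, which was called, and *H4C15*, which was not, passed the filter only through the *DUSP6* siRNA libraries. *H4C8* had 7.94, 11.1 and 9.21 against 19.4, 23.0 and 20.4 (log2 fold change 1.08, SE 0.13, limma adjusted p = 3.34e-04), with tight and well separated groups. *H4C12* had 0.476, 0.671 and 0.916 against 1.76, 1.77 and 1.21 (0.61, limma adjusted p = 0.00797). It is a near copy of *H4C11* (92.1% or more of exon stretches shared), which had 4.55, 6.15 and 4.35 against 5.42, 5.54 and 5.02 and was not called. The pair summed to 5.71 ± 0.974 against 6.91 ± 0.592, a ratio of 1.21 beside 2.30 for *H4C12* alone. *H4C14* and *H4C15*, whose exons are identical in these stretches, had fold changes of 0.24 each and summed to 10.3 ± 1.62 against 12.5 ± 1.70, with overlap. *H4C5* had a log2 fold change of 0.03.

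Of the 3 linker histone genes that passed the filter, *H1-2* was called higher, at 64.8, 64.5 and 45.8 against 76.9, 74.3 and 77.2 (log2 fold change 0.40, SE 0.13, limma adjusted p = 0.0395). It was the second most abundant member, its *DUSP6* siRNA libraries were close together and all lay above the scrambled libraries. *H1-3* stayed near 1 in both groups (0.07, limma adjusted p = 0.662). *H1-10* had 26.5, 42.6 and 52.0 against 40.4, 31.9 and 33.8 (-0.14, SE 0.22, limma adjusted p = 0.620), with the *DUSP6* siRNA libraries inside the range of the scrambled ones.

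**Figure D3:**
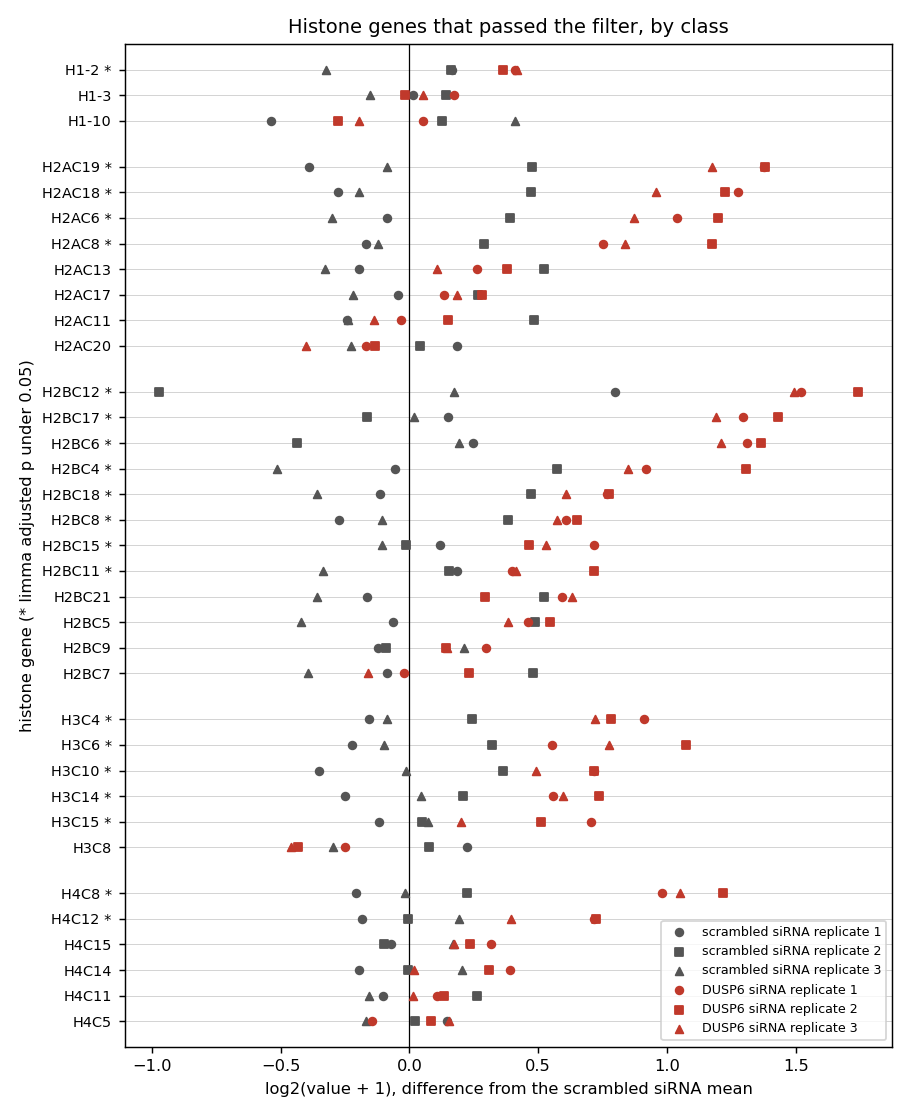
Each row is 1 of the 35 histone genes that passed the filter, ordered by class and fold change, and each point is 1 library (gray scrambled siRNA, red *DUSP6* siRNA) as its difference in log2(value + 1) from the scrambled siRNA mean of that gene. Asterisks mark the 20 genes called by limma. The red points lie right of all gray points in 21 rows, 5 of them genes that passed the filter only through the *DUSP6* siRNA libraries. Scrambled siRNA replicate 2 (gray squares) is the rightmost gray point in 20 rows.

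The scrambled siRNA libraries were not alike in these genes. Scrambled siRNA replicate 2 was the highest of its group in 20 of the 35 tested members, with a median difference of 0.22 from the group mean, against -0.11 and -0.12 in replicates 1 and 3. Among the *DUSP6* siRNA libraries, replicate 2 was the highest in 22 of the 35, and the medians were 0.56, 0.55 and 0.42. Every *DUSP6* siRNA library thus had a higher median than every scrambled library. Leaving out scrambled siRNA replicate 2 gave 23 members called higher.

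The 31 members under the filter had little signal and no common direction. Together they summed to 9.34, 9.70 and 6.58 with scrambled siRNA and 8.90, 7.20 and 7.03 with *DUSP6* siRNA, with overlap. edgeR without a filter called 2 of them higher and 2 lower. *H1-6*, a testis linker histone, had 7, 8 and 2 reads against 15, 42 and 18 (edgeR adjusted p = 0.00337), and *H3C13* had 2, 6 and 5 against 13, 28 and 11 reads (edgeR adjusted p = 0.00666), with 32.6% of its exon stretches shared with *H3C14*. *H2AC4* had 64, 56 and 21 reads against 10, 11 and 9 (edgeR adjusted p = 8.83e-04), and *H3C2* had 48, 29 and 37 against 13, 15 and 18 (edgeR adjusted p = 0.00695). These last genes are next to each other on chromosome 6, *H3C2* from 26031589 to 26032099 and *H2AC4* from 26033092 to 26033618, both on the minus strand. Neither shares exon stretches with another member, and in both all 3 *DUSP6* siRNA libraries lay below all 3 scrambled libraries in value.

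Members were called higher in both chromosomal clusters, in counts that include the 5 that passed the filter only through the *DUSP6* siRNA libraries. In 6p22, 15 of 25 tested members were called higher (median log2 fold change 0.57) and the summed value was 241 ± 34.0 against 439 ± 29.1. In 1q21, 5 of 9 were called higher (median 0.51) and the sum was 101 ± 29.5 against 167 ± 9.06. Neither pair of groups overlapped.

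Members differ in whether GENCODE or RefSeq lists a transcript that runs more than 100 bases past the stem-loop, the longer form that could carry a poly(A) tail. Such a form is listed for 15 members, 14 of which passed the filter, against 20 of the 50 members without one. Of the 14, 10 were called higher (median log2 fold change 0.68), and of the 20, also 10 were (median 0.32). Both sets include members that passed the filter only through the *DUSP6* siRNA libraries. *H2BC12*, *H2BC6*, *H2BC4*, *H2AC6* and *H4C8* have a listed longer form, while *H2AC18*, *H2AC19*, *H2BC17* and *H2AC8* do not. This split was chosen after the values had been seen, and the difference was not tested. Per kilobase of GENCODE exon, the mean levels of the 5 members with the highest values were 234 for *H2BC12*, 92.0 for *H1-2*, 53.2 for *H2BC5*, 29.9 for *H2BC21* and 25.0 for *H1-10*. On this scale the shorter *H2AC19* (52.2), *H2AC18* (31.8) and *H2BC17* (26.4) lay among them. The level of *H2BC12* is uncertain, since it was divided by 495 GENCODE bases while reads were counted on RefSeq models, which list a longer form. Levels are also uncertain where GENCODE exons exceed the RefSeq span. Examples are *H4C8* (2163 bases against 409), *H4C14* (1878 against 396) and *H2AC6* (1668 against 519). Which members stand highest per kilobase can thus depend on the annotation used.

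Other RNAs that lack a poly(A) tail, among them small nuclear, nucleolar and cytoplasmic RNAs, were measured in the same libraries. Of 27 such genes in the table, 7 passed the filter (*RN7SK*, *RN7SL1*, *RN7SL2*, *RMRP*, *RNVU1-7*, *SNORA73A* and *SNORA73B*), with no vault or Y RNA among them. Exons of *SNHG3* cover 100% of those of *SNORA73A*, so its value is uncertain. By limma 0 of the 7 were higher and 1, *SNORA73B*, was lower (log2 fold change -0.69, limma adjusted p = 0.0172). With no filter limma called 3 higher and 1 lower, beside 2981 higher and 3201 lower among all 22807 genes. Without a filter edgeR called 1 higher and 2 lower, beside 14.2% and 15.7% of all genes. With so few calls the counts give this list no clear direction. The 1 higher in edgeR was *SNORD3A*, the U3 RNA, with 16, 5 and 31 reads against 63, 97 and 71 (edgeR adjusted p = 3.29e-05). Their summed values ranged from 105 to 140 with scrambled siRNA and from 64.0 to 129 with *DUSP6* siRNA, and the median log2 fold change of the 7 was -0.23. Mean values over the 6 libraries were 73.9 for *RN7SL1*, 8.59 for *RN7SK* and 1.52 for *RMRP*. The small nuclear RNA genes *RNU2-1* and *RNU1-1* had 0.169 and 0.021. Whether these levels reflect selection of tails was not tested, nor was the part of tail-less RNA in the histone values.

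Genes of DNA replication, with which these histones are normally made, went the other way. Of 34 tested S phase genes, 32 were called lower and 0 higher, beside 24.7% lower and 19.7% higher among all genes tested. Their median log2 fold change was -0.67, beside 0.51 for the histone genes. *RRM2*, the regulated subunit of ribonucleotide reductase, fell from 532 ± 154 to 171 ± 20.99 (-1.60, limma adjusted p = 2.56e-04), and *POLE2*, a subunit of DNA polymerase epsilon, fell from 29.1 ± 2.95 to 14.3 ± 1.01 (-0.97, limma adjusted p = 2.16e-04). The summed value of the list ranged from 3703 to 4307 with scrambled siRNA and from 2279 to 2603 with *DUSP6* siRNA. In bulk RNA, fewer cells in S phase and less of these mRNAs per cell cannot be told apart.

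The histone chaperones, which carry histones to DNA, mostly fell as well, with 14 of 23 called lower and 1 higher (median log2 fold change -0.33). Among all genes tested 24.7% were lower and 19.7% higher. *MCM2*, called lower, is counted in this list and among the S phase genes. *CHAF1B* (-0.95, limma adjusted p = 1.95e-04) and *CHAF1A* (-0.82, limma adjusted p = 2.99e-04) encode subunits of the replication-coupled chaperone CAF-1, and *NASP* (-0.67, limma adjusted p = 7.13e-04) keeps the soluble reserve of H3 and H4. *HIRA*, the chaperone for H3.3 outside replication, was the 1 called higher (0.63, limma adjusted p = 0.00128), although exons of *C22orf39* cover 66.5% of its exons.

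Of the 10 genes for histone gene transcription, 4 were lower and 1 higher (median -0.15), beside 24.7% lower and 19.7% higher among all genes tested. With so few genes these counts give the list no clear direction. *E2F1* fell from 120.3 ± 13.8 to 47.6 ± 6.20 (-1.32, limma adjusted p = 7.25e-05), *CDK2*, whose kinase activates NPAT, fell by 0.73 on the log2 scale (limma adjusted p = 3.43e-04), and *POU2F1*, which binds the octamer printed above, fell by 0.44 (limma adjusted p = 0.00714). *NPAT*, the coactivator of histone gene transcription, had 38.9, 35.7 and 33.7 against 35.2, 36.8 and 35.8 (limma adjusted p = 0.980). *HINFP*, which binds H4 promoters, was the 1 called higher (0.36, limma adjusted p = 0.0290).

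Of the 19 tested genes for histone pre-mRNA processing and mRNA decay, 5 were lower and 1 higher (median -0.09), a share of lower genes near the 24.7% of all genes tested. The 1 called higher, *CSTF2*, is also counted in the polyadenylation list below, which shares *CPSF2*, *CPSF3* and *CSTF2T* with this list too. *SLBP*, whose protein binds the stem-loop, had 84.1, 65.7 and 69.2 against 52.0, 49.6 and 51.2 (-0.50, SE 0.11, limma adjusted p = 0.00541), without overlap. *ZNF473*, a component of the U7 processing pathway, fell by 0.58 on the log2 scale (limma adjusted p = 0.00212) and *ERI1*, an exonuclease that trims the histone mRNA end, by 0.48 (limma adjusted p = 0.00914). *NCBP1*, a subunit of the cap-binding complex, fell by 0.52 (limma adjusted p = 0.00210).

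For the machinery that adds poly(A) tails to other mRNAs, 4 of 19 genes were higher and 3 lower (median 0.06), shares close to or below those of all genes tested. With quantile normalization the counts were 7 higher and 1 lower. *PAPOLA*, the main nuclear poly(A) polymerase, had 611, 527 and 541 against 267, 247 and 262 (-1.11, SE 0.09, limma adjusted p = 4.31e-05), with no overlap and little spread in either group. *PABPN1*, the nuclear poly(A)-binding protein, was at a low level and higher (0.78, limma adjusted p = 0.00250). *CPSF1*, the largest subunit of the cleavage complex (0.48, limma adjusted p = 0.0185), and *PAPOLG*, another poly(A) polymerase (0.44, limma adjusted p = 0.00963), were also higher.

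**Figure D4:**
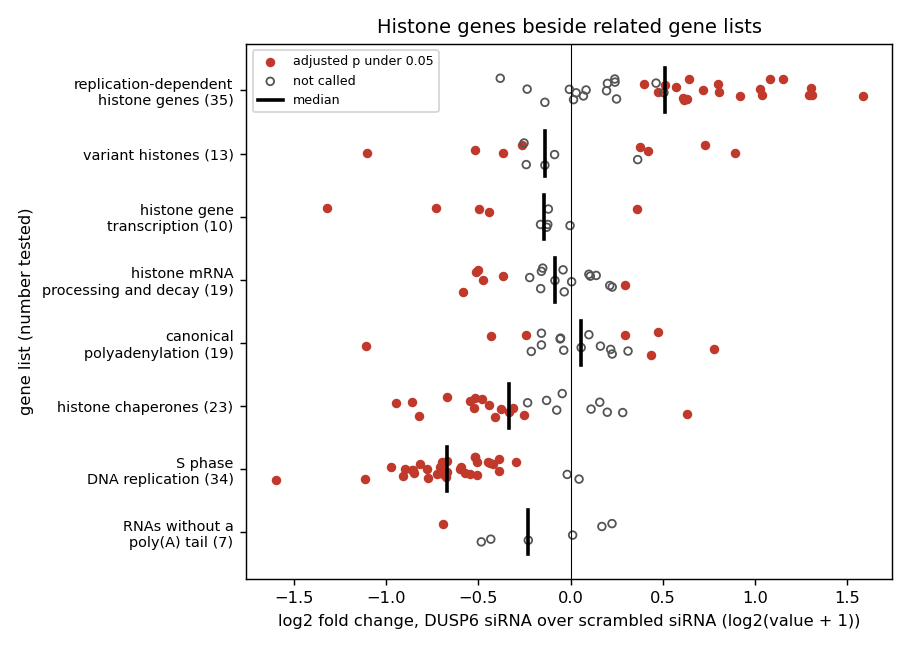
Each point is the log2 fold change (DUSP6 siRNA over scrambled siRNA, on log2(value + 1)) of a tested gene in the list named at the left, red where the limma adjusted p was under 0.05, with a black bar at the median. The histone genes have a median of 0.51, the S phase genes one of -0.67 and the chaperones one of -0.33.

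The variant and replication-independent histone genes, which are spliced, polyadenylated and made throughout the cell cycle, did not share the direction of the members. Of 13 tested, *H1-10* among them, 4 were higher and 4 lower, with a median of -0.14. Among all genes tested 19.7% were higher and 24.7% lower. *H2AX*, the variant phosphorylated at DNA breaks, whose mRNA can end in a stem-loop or a poly(A) tail, had 69.7, 65.5 and 49.6 against 33.6, 26.5 and 24.3 (-1.10, SE 0.16, limma adjusted p = 6.75e-04). *H2AJ* had 94.3 ± 9.71 against 65.5 ± 5.81 (-0.52, limma adjusted p = 0.00489). The stem-loop motif was also found after the stop codon of *H2AX*, so that genes with this motif were called in both directions.

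*H3-3B*, which encodes the replacement histone H3.3, had 528, 476 and 593 against 882, 858 and 899 (0.73, SE 0.10, limma adjusted p = 6.66e-04), and *H3-5*, a retrotransposed relative of it that can share its reads, was also higher (0.89, limma adjusted p = 5.92e-04). *H3-3A*, which encodes the same H3.3 protein, had 100.1, 241 and 279 against 239, 257 and 235 and was not called (limma adjusted p = 0.373), with scrambled siRNA replicate 1 far below the others. *H2AZ1* (-0.09, limma adjusted p = 0.680) was not called.

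Interferon-stimulated genes separated the groups more than any list above. All 10 tested were called higher, with a median log2 fold change of 6.21, and their summed value ranged from 18.8 to 56.4 with scrambled siRNA and from 3197 to 3772 with *DUSP6* siRNA. The part of this response in the histone values was not tested.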

How the data were processed

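RNA of 6 MDA-MB-453 libraries was analysed. The authors used Rsubread 2.0.0 with hg38 for alignment and, at default settings, for counting on RefSeq genes, and deposited 1 normalized signal value per gene and library. The handling of strand and of reads with several equal alignments is not given in the sources used here. All deposited values (100%) were whole reads (tolerance 0.01 reads) times 1 step per library, and the step matched edgeR's TMM scaling. A mean of at least 1 was required, and log2(value + 1) was fitted by limma 3.58.1 (R 4.3.3), using lmFit and a trended eBayes. Calls were made where the Benjamini-Hochberg adjusted p was below 0.05. edgeR 4.0.16 and DESeq2 1.42.0 on the recovered reads were alternatives. The fits were tested on simulated data. Values of all libraries were given for members called and for the 5 with the highest mean, and up to 4 called genes were named per list, with *SLBP*, *NPAT*, *H2AX*, *H2AZ1*, *H3-3A* and *H3-3B*. *H3C8*, *H1-6*, *H3C13*, *H2AC4*, *H3C2*, *HIRA*, *HINFP*, *CSTF2* and *SNORD3A* were chosen after their values were seen. Members and lists were chosen with earlier results of these data known. Sequence shared between members was measured as 50-base stretches of GENCODE v44 exons, or of coding sequence where so stated, and promoters came from RefSeq on GRCh38.p14. Some genes that these rules name are not reported here.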

Additional observations from a re-analysis of the deposited data

How the results depend on the processing

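The 20 members called higher were each refitted under 15 to 17 alternatives, since 7 of them had a mean of at least 10 and 15 could be refitted with copies summed. The direction of none changed in these fits, and 13 stayed called in every fit run for them. *H2BC18*, *H1-2*, *H2BC11*, *H3C10*, *H3C15*, *H2BC4* and *H2BC8* each lost the call in at least 1. The count of members higher was 7 with a mean of at least 10, where 11 were tested, and ranged from 13 (without *DUSP6* siRNA replicate 2) to 23 (without scrambled siRNA replicate 2) on leaving out 1 library. The count of members lower was 1 with no filter, with quantile normalization and with a replicate block, 3 with edgeR without a filter, and 0 to 1 on leaving out 1 library. The median log2 fold change was 0.68 with a pseudocount of 0.1, 0.10 with no filter, 1.04 with a mean of at least 10, 0.71 with edgeR and 0.69 with DESeq2, and 0.47 to 0.61 on leaving out 1 library. The log2 fold change of *H1-10* was 0.066 with scrambled siRNA replicate 3 left out (limma adjusted p = 0.789). With scrambled siRNA replicate 1 left out it was -0.41 and passed as lower (limma adjusted p = 0.0484). With the reads of near-identical copies summed, 17 of 31 were higher. Same-numbered libraries had correlations of deviations of 0.005, 0.087 and -0.076, so the numbers were not taken to pair the samples. The replicate block gave 22 members higher. Over all genes, leaving out *DUSP6* siRNA replicate 2 lowered the genes called higher from 2540 to 1574. The fit by edgeR without a filter was chosen after seeing the data. Counting error was not set against the spread between libraries, and the lowest tested members rest on few reads, such as *H3C14* with 24, 45 and 55 in the scrambled siRNA libraries.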
